A study of Rattus norvegicus with 10 samples.

Results

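The genes described here come from families of cyclic AMP signalling, measured in the supraoptic nucleus. These are the G-protein alpha subunits, the adenylyl cyclases, the subunits of protein kinase A and the phosphodiesterases. Not every member acts on cyclic AMP, since some serve cyclic GMP or other pathways. The genes were chosen by symbol, with earlier results of these data known. The 57 rows, of 32623 deposited, had symbols beginning with Gna, Adcy, Prkac, Prkar or Pde and then a family letter or number. Adcy5, Pde10a and Pde1b matched as well but were left out. The 57 rows carried 55 distinct symbols, because Gnas and Pde4c each stood beside a pair of Ensembl identifiers. A mean of at least 10 normalized counts over the 10 samples was reached by 50 of the 57 rows, and those were tested.

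The rats were male Sprague Dawley animals of unstated age, and RNA of their supraoptic nuclei had been sequenced. Adeno-associated virus had carried a short hairpin RNA against Opn3 into the nucleus of one side (shOpn3, n = 5) and a non-targeting hairpin into the other (shControl, n = 5), and tissue had been punched from frozen sections 2 weeks later. All samples had thus received virus and a hairpin, no uninjected nucleus was compared, and each library came from a single nucleus. The promoter of the hairpin and the cells it reached are not given in the sources used here.

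Cyclic AMP is made from ATP by adenylyl cyclases. The Gs class of alpha subunits stimulates these enzymes and the Gi class inhibits several of them, while the Gq class acts through phospholipase C. Gna12 and Gna13 form a class of their own. Cyclic AMP releases the catalytic subunits of protein kinase A from its regulatory subunits, and phosphodiesterases end the signal. In magnocellular neurons, the large vasopressin and oxytocin cells of this nucleus, the pathway is known to act on peptide gene transcription and excitability. Opsin 3, the product of Opn3, has been reported to couple to Gi proteins.

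The recovered reads came to between 33158341 and 39958578 per library. Opn3, the target of the hairpin, stood at 719, 694, 841, 1007 and 261 normalized counts in shControl replicates 1 to 5 and at 290, 193, 159, 154 and 145 in shOpn3 replicates 1 to 5. It was lower in shOpn3 in 5 of 5 same-numbered pairs (log2 fold change -1.82 with standard error 0.320, limma adjusted p = 0.00226), and the groups overlapped through shControl replicate 5. The samples also differed in the markers of several cell types. Of 6 magnocellular markers 5 were called lower (6 with the replicate block), with sums of 54925 to 161942 normalized counts in shControl and 9695 to 32434 in shOpn3. All 6 oligodendrocyte markers were called lower (sums of 690740 to 1176282 against 233206 to 443002), and all 7 markers of microglia and macrophages higher (8245 to 11280 against 15453 to 30617). Astrocyte markers were called higher in 3 of 6 and lymphocyte markers in 3 of 5, general neuronal markers 1 higher and 1 lower of 6, markers of striatal and amygdalar spiny neurons 2 higher and 2 lower of 7, precursors of oligodendrocytes 1 lower of 4, and endothelial and mural markers 0 of 5 (0 at an unadjusted p under 0.05, and 0 with the replicate block). Of the ependymal and tanycyte markers only Ccdc153 passed the filter, at a mean of 35.5 and 35.7 normalized counts in shControl and shOpn3. In such bulk samples, fewer cells of a type and less RNA per cell cannot be told apart.

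Limma called 14 of the 50 members tested (adjusted p under 0.05), with 6 higher in shOpn3 and 8 higher in shControl. The 14 are 28% of the members, while 18.8% of all 15597 genes tested were called (10.4% higher and 8.48% lower). Without shOpn3 replicate 3 the count was 8, of which 2 were higher in shOpn3. The share over all genes in that fit is not given here. The family did not shift one way as a whole. The median log2 fold change of its 50 tested members was 0.01, beside -0.02 over all genes, and 26 of the 50 had a positive value. The groups did not overlap for 11 members, against 15.3% of all genes, and all 5 pairs differed in 1 direction for 24 members, against 39.4% of all genes. With the replicate number as a block, 21 members were called, 12 higher and 9 lower, while the share over all genes was 30.3%. The authors' deposited table had an adjusted p for 52 members and put 17 of them under 0.05, 9 higher and 8 lower, with 21.3% of all its genes under that value. All 14 members called by limma were among these 17, which also held Gna13, Adcy7 and Pde2a.

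**Figure D1:**
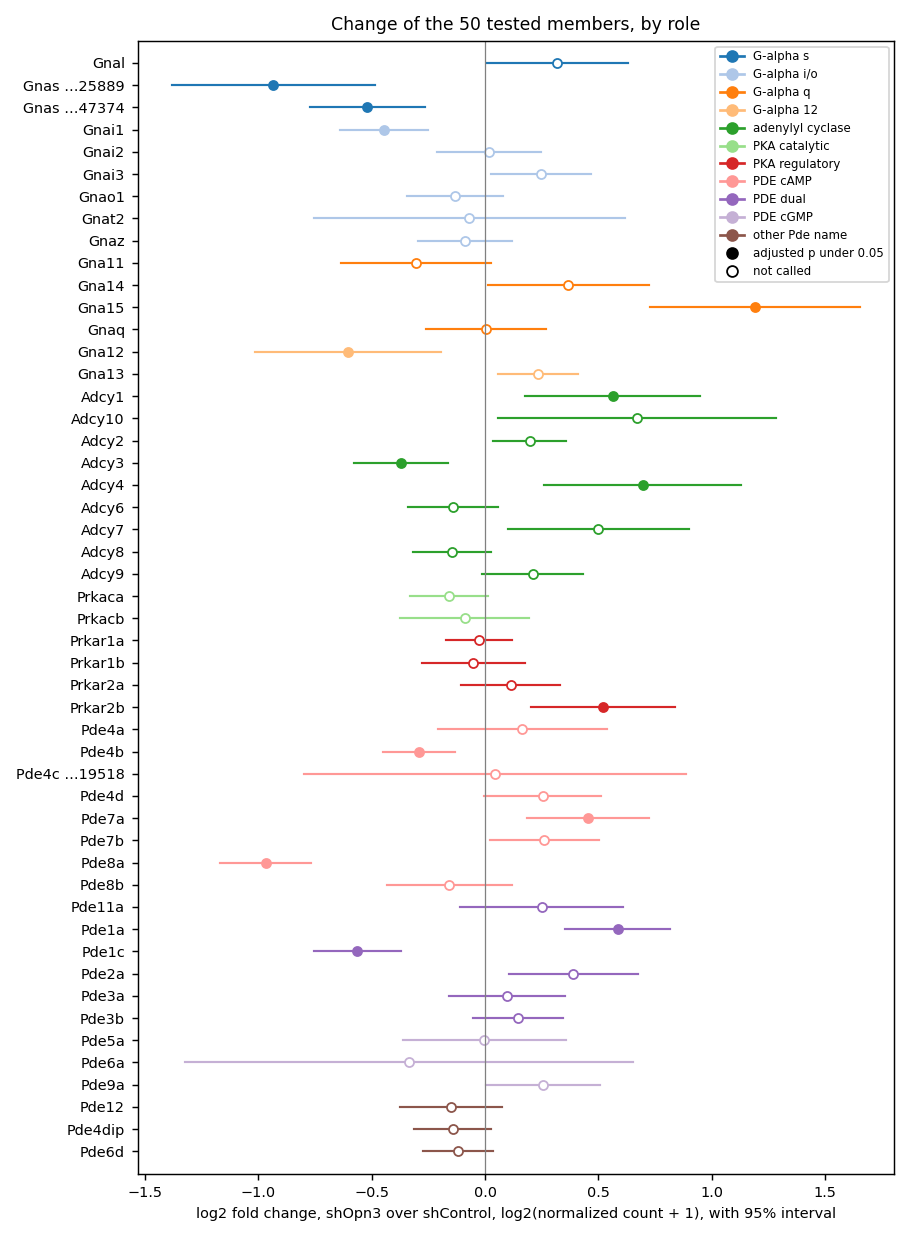
Log2 fold change (shOpn3 over shControl) of the 50 tested members on the log2(normalized count + 1) scale, grouped by role, with 95% intervals from limma. Filled circles mark the 14 members with an adjusted p under 0.05, which lie on both sides of 0 within the G-alpha subunits, the cyclases and the phosphodiesterases.

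Among the G-protein alpha subunits, both rows of the Gnas locus were called lower. Of the 6 tested Gi and Go subunits, Gnai1 alone was called lower. Gnas encodes the ubiquitous stimulatory alpha subunit and, from other start sites of the same imprinted locus, further proteins such as the secretory granule protein Nesp55. The more abundant Gnas row (ENSRNOG00000047374) had 32781, 26368, 26183, 27630 and 25236 normalized counts in shControl replicates 1 to 5 and 24868, 19611, 16186, 17405 and 18965 in shOpn3. Every shOpn3 value lay below every shControl value, and the mean fell to 70.2% of control (log2 fold change -0.52 with standard error 0.117, limma adjusted p = 0.00869).

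The second Gnas row (ENSRNOG00000025889) had 3333, 5881, 6104, 5308 and 2900 normalized counts in shControl and 2500, 2938, 2372, 2200 and 1886 in shOpn3. It fell to 50.6% of control (log2 fold change -0.93 with standard error 0.206, limma adjusted p = 0.00783), with a single overlap, since shControl replicate 5 lay just under shOpn3 replicate 2. The table does not say which transcripts of the locus each row counts, so the reads of the rows may not be fully separate. Gnal, the stimulatory subunit of olfactory and striatal neurons, stood at 2235, 2489, 2722, 2364 and 1806 in shControl and at 3210, 3613, 2901, 2101 and 2757 in shOpn3. It had a log2 fold change of 0.32 (95% interval 0.0071 to 0.63), was not called (limma adjusted p = 0.147), and its groups overlapped.

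In the inhibitory class, Gnai1 fell. It had 4046, 4790, 5316, 4757 and 5121 normalized counts in shControl and 3213, 3802, 3645, 3166 and 3781 in shOpn3, with no overlap and 73.3% of the control mean left (log2 fold change -0.45 with standard error 0.0888, limma adjusted p = 0.00452). Its close relative Gnai3 had 2982, 3516, 3568, 3784 and 3606 in shControl and 3555, 3936, 4613, 4932 and 3783 in shOpn3, higher in 5 of 5 pairs but with overlapping groups. Gnai3 was not called without the block (log2 fold change 0.25, limma adjusted p = 0.111) and was called with it (limma adjusted p = 0.0192).

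Gnai2, the remaining Gi subunit, showed no difference beyond the spread. It had 12222, 10743, 9586, 10639 and 13470 normalized counts in shControl and 12389, 9717, 10819, 12742 and 11524 in shOpn3 (log2 fold change 0.02, 95% interval -0.21 to 0.25, limma adjusted p = 0.934). Gnao1, the most neuronal member of the class, had 9148, 8798, 8949, 8554 and 8189 in shControl and 9643, 8431, 7371, 6448 and 8209 in shOpn3, so that the shOpn3 samples lay both above and below all controls. Its log2 fold change was -0.13 (95% interval -0.35 to 0.079, limma adjusted p = 0.384). Gnaz, the pertussis-toxin-resistant subunit of neurons and platelets, had 1116, 1009, 1056, 1169 and 992 in shControl and 1196, 1038, 914, 869 and 1032 in shOpn3 (log2 fold change -0.09, 95% interval -0.30 to 0.12, limma adjusted p = 0.572). Gnat2, the cone transducin, was near the filter at a mean of 25.8 normalized counts (log2 fold change -0.07, 95% interval -0.76 to 0.62).

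The remaining alpha subunits held the largest rise of the family. Gna15, a Gq-class subunit known mainly from blood and immune cells, had 141, 131, 109, 96.4 and 142 normalized counts in shControl and 212, 186, 348, 399 and 322 in shOpn3. It rose to 236% of control without overlap (log2 fold change 1.19 with standard error 0.213, limma adjusted p = 0.00251). The widely expressed Gnaq had 3237 ± 494 and 3243 ± 470 normalized counts (mean ± SD of 5 samples), which gave a log2 fold change of 0.0043 and a 95% interval of -0.26 to 0.27. Gna11 and Gna14, the other Gq-class genes, had log2 fold changes of -0.30 and 0.37 and were not called (limma adjusted p = 0.193 and 0.145). Gna11 was lower in 5 of 5 pairs and was called with the block (limma adjusted p = 0.00838).

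Gna12 and Gna13 differed from each other in the sign of their change. Gna12 had 14573, 9528, 9289, 9192 and 16697 normalized counts in shControl and 8131, 5614, 6807, 8940 and 8758 in shOpn3. The groups did not overlap, although the gap between shControl replicate 4 and shOpn3 replicate 4 was narrow, and 64.5% of the control mean was left (log2 fold change -0.60 with standard error 0.189, limma adjusted p = 0.0420). That call was lost in 8 of 20 alternative fits, among them those without shControl replicate 1, shControl replicate 5, or shOpn3 replicates 1, 2, 3 or 5. Gna13 had 4456 ± 223 and 5253 ± 572 normalized counts (SD, n = 5 each) and groups that did not overlap. It was not called without the block (log2 fold change 0.23, limma adjusted p = 0.0663) and was called with it (limma adjusted p = 0.0176).

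Of 9 adenylyl cyclases tested, 2 rose and 1 fell. Adcy3, the cyclase of olfactory and neuronal primary cilia, had 2933, 2577, 2662, 2495 and 2509 normalized counts in shControl and 2486, 2128, 1779, 1800 and 2061 in shOpn3. It fell to 77.8% of control (log2 fold change -0.37 with standard error 0.0959, limma adjusted p = 0.0181), with groups set apart by the narrow gap between 2495 and 2486, and the call was lost without shOpn3 replicate 3 (limma adjusted p = 0.0539).

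Adcy1, a calmodulin-stimulated cyclase of neurons, had 923, 549, 482, 516 and 674 normalized counts in shControl and 1046, 869, 815, 726 and 1113 in shOpn3. It was higher in 5 of 5 pairs (log2 fold change 0.56 with standard error 0.177, limma adjusted p = 0.0433), but shControl replicate 1 lay inside the shOpn3 range. The call was lost in 10 of 20 alternative fits, 8 of which left out 1 library (shControl replicates 2 to 5 or shOpn3 replicates 1, 2, 3 or 5), with limma adjusted p up to 0.105. Adcy4, a cyclase that G-protein beta-gamma subunits stimulate, had 163, 126, 133, 134 and 184 in shControl and 232, 154, 245, 365 and 236 in shOpn3. It rose to 167% of control (log2 fold change 0.69 with standard error 0.201, limma adjusted p = 0.0299), with shOpn3 replicate 2 inside the control range. That call was lost without any 1 of shControl replicates 2, 3 or 4 or shOpn3 replicates 3, 4 or 5, with limma adjusted p up to 0.0736.

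The other 6 cyclases were not called. Adcy7, which is abundant in microglia and blood cells, had a log2 fold change of 0.50 (95% interval 0.10 to 0.90, limma adjusted p = 0.0798), and Adcy2, a neuronal beta-gamma-stimulated form, one of 0.20 (limma adjusted p = 0.0846). The soluble, bicarbonate-sensitive Adcy10 was low, at 47.0 ± 19.1 and 71.9 ± 18.6 normalized counts (SD, n = 5 each). Its log2 fold change of 0.67 was not called (limma adjusted p = 0.122) except with the block (limma adjusted p = 0.0421). Adcy6, Adcy8 and Adcy9 had log2 fold changes of -0.14, -0.15 and 0.21 (limma adjusted p = 0.312, 0.229 and 0.178).

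Protein kinase A changed in 1 of its 6 subunits. Prkar2b, the type II regulatory subunit of neurons and fat, had 1343, 1919, 2057, 1898 and 1260 normalized counts in shControl and 2149, 2766, 2680, 2096 and 2305 in shOpn3. Every shOpn3 value lay above every shControl value, and the mean rose to 142% of control (log2 fold change 0.52 with standard error 0.146, limma adjusted p = 0.0263). The call was lost without shControl replicate 1 or without shOpn3 replicates 2 or 3, with limma adjusted p up to 0.0721.

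The catalytic subunits were not called. Prkaca had 6579, 7207, 7142, 6941 and 5765 normalized counts in shControl and 6119, 6581, 5979, 5496 and 5898 in shOpn3 (log2 fold change -0.16, 95% interval -0.33 to 0.012, limma adjusted p = 0.187). Prkacb had a log2 fold change of -0.09 (95% interval -0.38 to 0.20). Prkar1a, the ubiquitous type I regulatory subunit, had 15212, 15883, 16895, 16050 and 14226 in shControl and 15243, 16028, 15230, 15063 and 15079 in shOpn3. Its 95% interval was the narrowest of the 50 tested members, -0.17 to 0.12 around a log2 fold change of -0.03. The neuronal Prkar1b and the widely expressed Prkar2a had log2 fold changes of -0.05 and 0.11 (limma adjusted p = 0.777 and 0.481).

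Phosphodiesterases that break down cyclic AMP alone moved in both directions, with 2 lower and 1 higher of 8 rows tested. Pde8a, a high-affinity cyclic AMP phosphodiesterase, had the lowest log2 fold change of the tested members. It had 1793, 1770, 1906, 1627 and 2103 normalized counts in shControl and 887, 807, 965, 997 and 1044 in shOpn3. The groups lay far apart, with 51.1% of the control mean left (log2 fold change -0.97 with standard error 0.0927, limma adjusted p = 0.000151).

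Pde4b, a rolipram-sensitive phosphodiesterase of brain and immune cells, had 3768, 3670, 4128, 3758 and 3924 normalized counts in shControl and 3395, 3495, 3018, 2846 and 3004 in shOpn3. It fell to 81.9% of control without overlap (log2 fold change -0.29 with standard error 0.0738, limma adjusted p = 0.0160). Pde7a, a rolipram-resistant form, had 311, 368, 444, 375 and 328 in shControl and 406, 512, 592, 509 and 485 in shOpn3, higher in 5 of 5 pairs. It rose to 137% of control (log2 fold change 0.45 with standard error 0.124, limma adjusted p = 0.0231). Its groups overlapped through shControl replicate 3, and the call was lost without shControl replicate 1 or shOpn3 replicate 3 and with quantile normalization (limma adjusted p up to 0.0682). Pde4a, Pde4d, Pde7b, Pde8b and the tested Pde4c row had log2 fold changes of 0.16, 0.25, 0.26, -0.16 and 0.04 and were not called. With the block, Pde7b was called (limma adjusted p = 0.0490).

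Among the phosphodiesterases for both cyclic nucleotides, the calmodulin-dependent Pde1a and Pde1c moved in opposite directions, while Pde1b had been left out of the members. Pde1a had 1410, 1611, 1791, 1875 and 1571 normalized counts in shControl and 2830, 2775, 2403, 2028 and 2389 in shOpn3, a rise to 150% of control without overlap (log2 fold change 0.59 with standard error 0.107, limma adjusted p = 0.00275). Pde1c had 687, 710, 692, 620 and 703 in shControl and 412, 438, 447, 493 and 521 in shOpn3, a fall to 67.7% of control without overlap (log2 fold change -0.56 with standard error 0.0884, limma adjusted p = 0.00116). Pde2a, which cyclic GMP stimulates, was higher in 5 of 5 pairs at 3961 ± 761 and 5154 ± 711 (SD, n = 5 each), with overlapping groups. It was not called without the block (log2 fold change 0.39, limma adjusted p = 0.0573) and was called with it (limma adjusted p = 0.00545). Pde3a, Pde3b and Pde11a had log2 fold changes of 0.10, 0.15 and 0.25 (limma adjusted p = 0.614, 0.304 and 0.328).

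The cyclic GMP phosphodiesterases Pde5a, Pde6a and Pde9a were not called, at log2 fold changes of -0.0025, -0.34 and 0.26. Pde9a was called with the block (limma adjusted p = 0.0208). The symbols Pde4dip (a centrosome and Golgi anchor), Pde6d (a carrier of prenylated proteins) and Pde12 (a mitochondrial RNA-trimming enzyme) matched by name, although they are not cyclic nucleotide phosphodiesterases. Their log2 fold changes were -0.14, -0.12 and -0.15, none called.

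**Figure D2:**
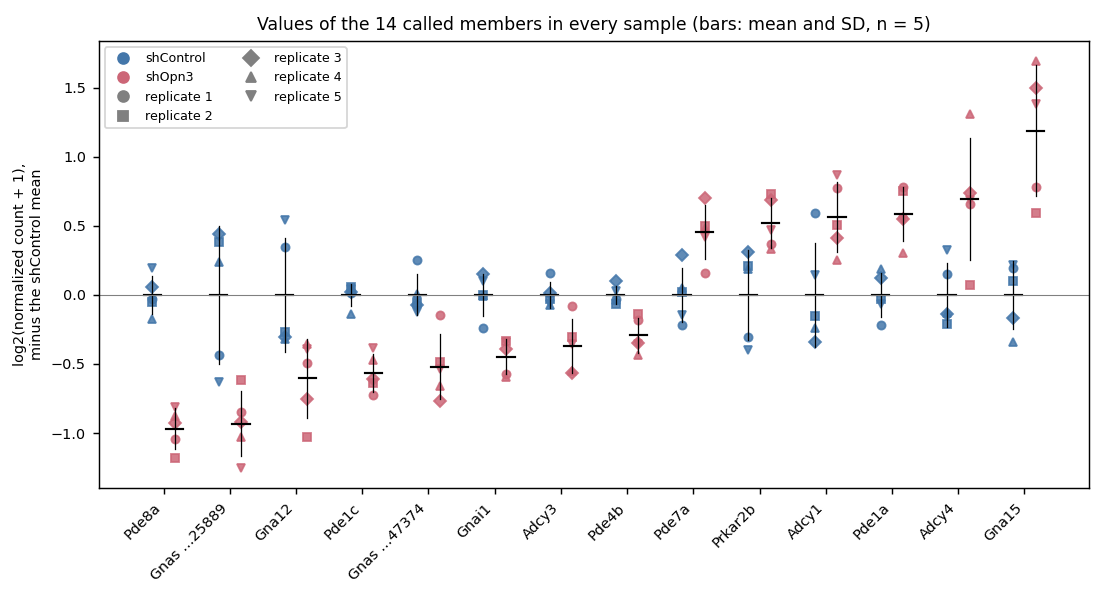
Log2(normalized count + 1) minus the shControl mean of each gene, for the 14 members with a limma adjusted p under 0.05, in each of the 5 shControl and 5 shOpn3 samples, with the mean and SD of each group. The groups are separate for Pde8a, Pde1c, Pde1a, Gna15, Gnai1 and 5 others, and overlap for Adcy1, Adcy4, Pde7a and the smaller Gnas row.

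The 7 members under the filter were the second Pde4c row, Gnat1, Gnat3, Pde6b, Pde6c, Pde6g and Pde6h, of which Gnat1, the Pde6 genes and Gnat3 belong to photoreceptor or taste signalling. Just outside the filter stood Gnat1, the rod transducin, at a mean of 8.75 normalized counts, and just inside it Pde6a, a rod phosphodiesterase subunit, at 11.1. Gnat3, the taste transducin, had at most 1 read in any library. Pde6h had at most 4 reads and Pde6b at most 5.

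The upstream sequences of the pairs Pde1a with Pde1c and Pde8a with Pde8b are shown because these close relatives differed in their change. Each run is the 250 bases before a RefSeq gene start (build GRCr8), written in the direction of the gene, from the 38 of 55 symbols that the sequence table held. Capitals mark the core of the cyclic AMP response element, TGACG, searched on both strands (CGTCA on the other). The element is the binding site of CREB, a substrate of protein kinase A.
Pde1a (chr3:85431779-85432028, minus strand): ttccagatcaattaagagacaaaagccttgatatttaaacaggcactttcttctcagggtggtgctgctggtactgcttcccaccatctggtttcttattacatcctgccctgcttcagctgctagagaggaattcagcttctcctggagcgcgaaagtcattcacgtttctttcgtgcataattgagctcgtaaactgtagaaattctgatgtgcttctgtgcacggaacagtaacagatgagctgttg
Pde1c (chr4:87108135-87108384, minus strand): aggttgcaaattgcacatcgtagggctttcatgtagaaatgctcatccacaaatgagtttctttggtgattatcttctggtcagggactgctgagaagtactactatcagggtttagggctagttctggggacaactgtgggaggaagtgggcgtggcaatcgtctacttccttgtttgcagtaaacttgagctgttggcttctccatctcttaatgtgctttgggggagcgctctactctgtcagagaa
Pde8a (chr1:144575219-144575468, plus strand): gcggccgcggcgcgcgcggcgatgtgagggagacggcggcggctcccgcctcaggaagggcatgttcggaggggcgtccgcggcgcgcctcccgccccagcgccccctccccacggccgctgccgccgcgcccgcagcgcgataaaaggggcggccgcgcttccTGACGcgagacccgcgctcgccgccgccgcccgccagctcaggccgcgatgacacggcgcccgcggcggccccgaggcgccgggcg
Pde8b (chr2:28116052-28116301, minus strand): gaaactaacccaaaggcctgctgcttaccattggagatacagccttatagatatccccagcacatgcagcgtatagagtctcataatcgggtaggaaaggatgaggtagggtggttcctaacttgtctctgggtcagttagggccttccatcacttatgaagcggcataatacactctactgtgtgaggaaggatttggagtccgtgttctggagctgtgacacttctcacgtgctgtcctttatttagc

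Of these 4 windows only that of Pde8a held the core, beginning 86 bases before the start. Base composition set the Pde8a window apart, with 82.4% G and C and 51 CpG dinucleotides, against 47.6% and 5 for Pde8b, 44.8% and 6 for Pde1a, and 46.8% and 4 for Pde1c. Over the family, 9 of 53 windows (17%) held the core, beside 18.2% of the 33469 windows of all genes. The full element TGACGTCA, which contains the core on both strands, was found in 1 of the 53 windows, upstream of Gnao1, and in 1.59% of all windows.

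Whether related members differed in their change was tested on the log2 ratio of the pair within each sample. The ratio itself is not corrected for gene length, which cancels only in its difference between groups. The 25 ratios were of pairs chosen with earlier results of these data known. Exact two-sided permutation tests were adjusted over the 25, and 11 ratios differed between the groups. Ratios of other gene pairs were not tested, so no background share stands beside the 11. All of the 11 but Gna14 to Gnaq and Adcy6 to Adcy9 held a member already called by limma, and so are not independent of those calls. The arrangements of 5 against 5 samples allow no p below 0.00794, which 10 of the 11 reached. These tests did not use the pairing of the samples. Sign flips within the 5 same-numbered pairs called 0 ratios, since they allow no exact p below 0.0625. The log2 ratio of Pde1c to Pde1a fell from -1.27 ± 0.22 to -2.42 ± 0.31 (SD, n = 5 each), so that the ratio in shOpn3 was 0.45 of that in shControl (exact permutation p = 0.00794, adjusted p = 0.0198). The log2 ratio of Adcy3 to Adcy1 fell from 2.11 ± 0.32 to 1.17 ± 0.17, and that of Pde4b to Pde4d from 1.98 ± 0.24 to 1.44 ± 0.09.

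In the other direction, the log2 ratio of Gnal to the larger Gnas row rose from -3.58 ± 0.26 to -2.74 ± 0.27, and that of Gnal to the smaller row from -0.97 ± 0.31 to 0.29 ± 0.22 (SD, n = 5 each). Gnai3 rose relative to Gnai1 by 0.69, Pde8b relative to Pde8a by 0.81, Gna13 relative to Gna12 by 0.84, Prkar2b relative to Prkar2a by 0.41 and Gna14 relative to Gnaq by 0.36 on the log2 scale. Each of the 7 had an exact permutation p of 0.00794 (adjusted p = 0.0198), and all 5 same-numbered pairs had the direction of the mean. Adcy6 fell relative to Adcy9 by 0.35 (exact permutation p = 0.0159, adjusted p = 0.0361), with overlapping groups. Gna14 to Gnaq was no longer called without shOpn3 replicate 4, Gna13 to Gna12 without shOpn3 replicate 3, and Adcy6 to Adcy9 without shOpn3 replicate 3 or 5, each with an adjusted p of 0.0541 by the exact permutation test.

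The other 14 ratios were not called. Gnai2 to Gnai1 differed by 0.46 (exact permutation p = 0.0476, adjusted p = 0.0916) and Adcy8 to Adcy1 by -0.71 (exact permutation p = 0.0397, adjusted p = 0.0827), both in 1 direction in all 5 pairs. Gnai2 to Gnai1 was called without shControl replicate 1 or without shOpn3 replicate 2 (adjusted p = 0.0458 in each case), and Adcy8 to Adcy1 without shControl replicate 1 (adjusted p = 0.0180). Leaving out 1 library also brought in Gnaz to Gnao1 (shControl replicate 4), Adcy4 to Adcy2 (shOpn3 replicate 2), Pde4c to Pde4d (shControl replicate 3) and Pde7b to Pde7a (shOpn3 replicate 1), at adjusted p of 0.0220, 0.0458, 0.0331 and 0.0361. The ratio of the catalytic subunits, Prkacb to Prkaca, differed by 0.07, and that of Prkar1b to Prkar1a by -0.02.

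**Figure D3:**
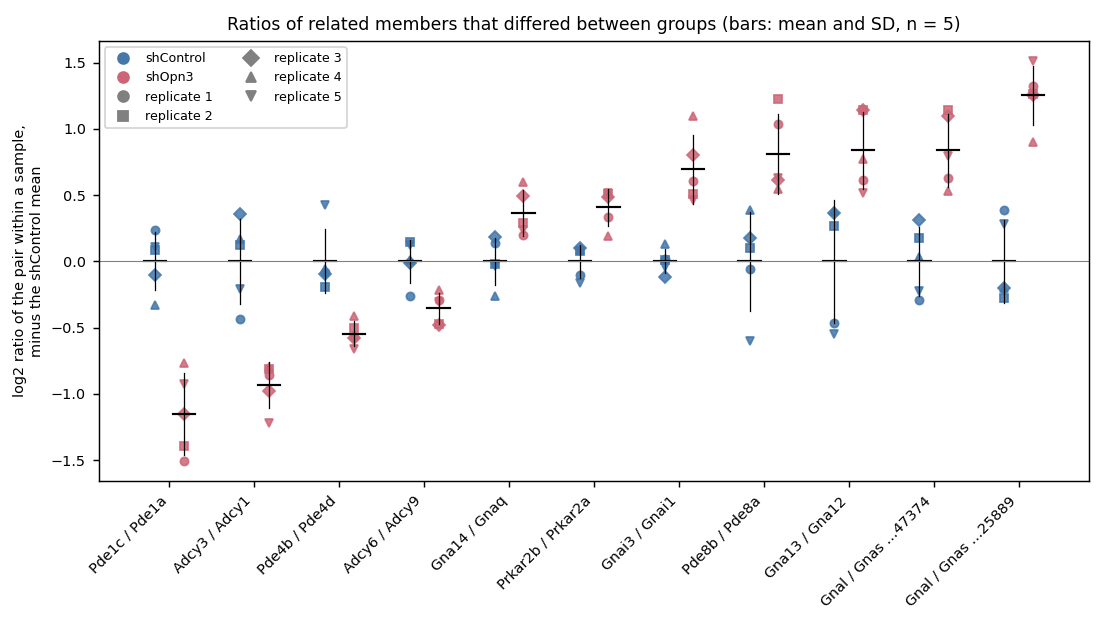
Log2 ratio of paired members within each sample, minus the shControl mean of that ratio, for the 11 ratios with an adjusted p under 0.05, with the mean and SD of each group of 5. The shOpn3 samples lie below the shControl samples for Pde1c to Pde1a, Adcy3 to Adcy1 and Pde4b to Pde4d, and above them for the 7 ratios on the right, while Adcy6 to Adcy9 overlaps.

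Other genes of the pathway were taken from a list of 67 symbols that holds no member. Of 60 tested, 15 were called by limma, 9 higher and 6 lower (25%), with a median log2 fold change of 0.03, beside the 18.8% called over all genes. With the block 22 were called, beside 30.3% over all genes. Among anchors that hold protein kinase A in place, Akap5, an anchor of the postsynaptic density, rose from 358 ± 46.5 to 750 ± 114 (mean ± SD of 5 samples) on the normalized scale (log2 fold change 1.06, limma adjusted p = 0.000385). Akap13 rose by 0.49 on the log2 scale (limma adjusted p = 0.0121), while Akap12 fell by 0.80 and Akap7 by 0.45 (limma adjusted p = 0.000372 and 0.00960). Among beta and gamma subunits, Gngt2 and Gnb4 rose by 1.51 and 0.40 and Gng8 fell by 1.25 on the log2 scale. Gnb4 kept its call in 17 of 20 alternative fits.

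Regulators that speed or steer alpha subunits moved both ways as well. Rgs14, Rgs10 and Gpsm3 rose by 1.58, 0.78 and 0.70 on the log2 scale, and Rgs9, which also stood in the spiny neuron list, fell by 0.61. Gpsm3 was called in 13 of 20 alternative fits. Of effectors other than the kinase, the exchange factors Rapgef4 and Rapgef2 rose by 0.47 and 0.27. Rapgef2 kept its call in 17 of 20 alternative fits. Cngb1, a subunit of cyclic nucleotide-gated channels, fell from 225 ± 69.1 to 77.4 ± 17.5 (mean ± SD of 5 samples) on the normalized scale (log2 fold change -1.48, limma adjusted p = 0.00210). Of 10 transcription factors and coactivators, Creb5 alone was called without the block, at a log2 fold change of -0.74 (limma adjusted p = 0.00755). With the block Creb3 was called as well (log2 fold change -0.18, limma adjusted p = 0.0308).

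Some members moved with marker sums sample by sample. In each group the 5 samples stood in the same order for Gna15 as for the summed markers of microglia and macrophages. Per 1000 normalized counts of those markers, Gna15 had 12.6, 13.4, 12.8, 11.7 and 12.6 in shControl replicates 1 to 5 and 11.4, 12.0, 13.9, 13 and 14.8 in shOpn3. These ranges overlapped, although Gna15 itself did not. Adcy7, set against the same markers, had 34.5 to 73.7 in shControl and 29.0 to 36.2 in shOpn3.

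Gna12 and Pde8a fell together with the oligodendrocyte markers. Both Gna12 and those markers were highest in shControl replicates 1 and 5, at 14573 and 16697 normalized counts of Gna12. Per 1000 counts of the oligodendrocyte markers, Gna12 had 12.4 to 15.9 in shControl and 19.8 to 24.8 in shOpn3, and Pde8a had 1.79 to 2.56 and 2.36 to 3.46. Relative to these markers both genes were thus higher in most shOpn3 samples, since the markers fell further than the genes did. The part that cell types had in any of these changes was not tested.

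**Figure D4:**
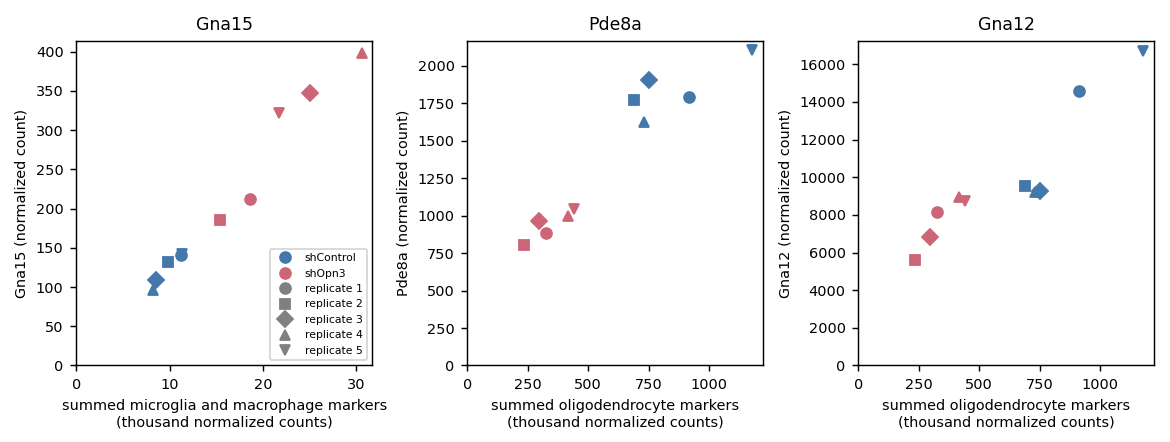
Normalized counts of Gna15, Pde8a and Gna12 (vertical axes) against the summed normalized counts, divided by 1000, of the microglia and macrophage markers (left) or the oligodendrocyte markers (middle and right) in the 10 samples, with colour for the group and symbol for the replicate number. Gna15 and its markers are higher in every shOpn3 sample, and Pde8a, Gna12 and their markers are lower.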

How the data were processed

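RNA sequencing of 10 supraoptic nuclei was deposited as 1 table. Per the submitters' processing notes, FastQC, STAR, featureCounts and DESeq2 had been used. Genome build, annotation release and strand setting are not given in the sources used here, so overlapping genes and near copies are uncertain. The deposited signal is a read count per gene divided by 1 size factor per sample. Each value was a whole multiple of its sample's smallest positive value (100% of values within 0.0001 reads), which gave whole reads. Per the file headers, the authors' log2 fold change with its error, Wald score, p-value and adjusted p-value stand beside them. Labels give no batch.

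Log2(normalized count + 1) values of genes with a mean of at least 10 were compared with limma 3.58.1 (R 4.3.3, eBayes with trend, group only, two-sided), with Benjamini-Hochberg adjustment over all 15597 genes. edgeR 4.0.16 and DESeq2 1.42.0 on the recovered reads were alternatives. Of the 50 members tested edgeR called 13, and its share over all genes is not given here. Same-numbered samples deviated from their group means together in all 5 pairs (r from 0.121 to 0.439, other pairs median -0.205). Because deviations were taken from group means, the median of the other pairs is not an independent baseline. The labels' protocols describe injecting both hairpins into each rat, on opposite sides. The main limma fit and the ratio tests nevertheless compared groups without pairs, and the replicate block was an alternative. It is given beside each member whose call it changes. For other pathway genes its count is given, and only some of the genes are named.

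Members, lists, pairs and tests were chosen with earlier results of these data known. Members called by limma were named with every sample's value, as were Gnas, Gnai1, Gnai2, Gnai3, Gnao1, Gnaz, Prkaca and Prkar1a. Gnal was given so after its values were seen. RefSeq (GRCr8) was used for upstream sequences alone.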

Additional observations from a re-analysis of the deposited data

Results flagged for a closer look

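Of 42 group values examined (each gene named with every sample's value by the naming rule, and Opn3, in each group), 2 had a sample set far from the other 4, and about 2.1 would arise by chance at 1 in 20. Pde1c in shControl replicate 4 stood low, at 620 normalized counts beside 687 in its nearest neighbour. Prkar1a in shOpn3 replicate 2 stood high, at 16028 beside 15243. Neither gene's call changed when that sample was left out.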

How the results depend on the processing

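Opn3 was called lower in each of 20 alternative fits (log2 fold changes of -2.14 to -1.66). Of 400 values that 20 named members took in these fits, 362 kept direction and side of the threshold, 31 lost the call, 2 gained it (Gnai3 with the block, by limma and edgeR) and 5 changed sign. The 31 were 10 for Adcy1, 8 for Gna12, 6 for Adcy4, 3 each for Pde7a and Prkar2b, and 1 for Adcy3. The sign changes concerned members not called: Gnai2 (-0.041 to 0.082 with 1 sample left out, below 0 without shControl replicates 3 or 4 or shOpn3 replicates 1 or 4) and Prkar1a (0.11 with quantile normalization).

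Leaving out 1 sample gave 8 to 16 members called (2 to 8 higher, 6 to 8 lower), 12 to 17 of the other pathway genes, and 9 to 13 ratios. The lowest count, 8 members with 2 higher, came without shOpn3 replicate 3, and the cause was not tested. With the replicate block limma called 12 members higher. The edgeR test with the same block, added after the data were seen, called 19 members (10 higher) and 23 other pathway genes. The shares of all genes called by edgeR or without 1 sample are not given here. The counts of those fits therefore cannot be set against such a share. For the ratios, the replicate block (sign flips over 5 pairs) gave 0 calls, because no p below 0.0625 is possible with it. Ratios that changed sign were not called: Prkar1b to Prkar1a (-0.091 to 0.035 with 1 sample left out), Pde4a to Pde4d (-0.20 to 0.014) and Pde3b to Pde3a (-0.045 to 0.12). The all-gene median log2 fold change was -0.019 in the main fit and lay between -0.035 and -0.025 with other scalings or tests. Genes near the filter, such as Pde6a, had wide intervals at this depth.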

Other observations

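The balance between the Gnas rows differed among same-group samples as well as between groups. The smaller row (ENSRNOG00000025889) had 10.2%, 22.3%, 23.3%, 19.2% and 11.5% of the normalized counts of the larger (ENSRNOG00000047374) in shControl replicates 1 to 5, and 10.1%, 15.0%, 14.7%, 12.6% and 9.95% in shOpn3 replicates 1 to 5. In both groups replicates 1 and 5 stood lowest. The shOpn3 value was the lower one in 5 of 5 pairs, by little in replicate 1. This comparison was chosen after the values were seen and carries no test.

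In shControl, replicates 1 and 5 also had the highest values of Gna12, Gna11, Pde2a and Adcy1 and the lowest values of Prkar2b and Pde7a. In shOpn3 the same numbers had the highest values of Gna11, Pde2a and Adcy1 and the lowest values of Pde7a.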
